A study of Mus musculus with 23 samples.

Results

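Transcripts of 8 genes used to recognise dendritic cells were followed through microglia taken from young and old mice, with and without depletion and regrowth of the microglia. The genes are Cd209a, Flt3, Zbtb46, Clec9a, Xcr1, Ccr7, Irf4 and Dpp4, matched by symbol among the 53090 genes of each table. All 8 were among the 18720 genes kept for testing. The set was chosen by expression values of these same libraries, in earlier work whose deciding comparison is not recorded. The differences of its members are therefore given as a description, and none of them is used as support. Tests are read only on other genes, and as a description too, since their lists were made with earlier results of these data known. Cd209a was many times higher in every other group than in untreated young mice. Flt3, Dpp4 and Ccr7 were also higher on average, with wide scatter between libraries. In young repopulated against young mice none of them passed the test, and Ccr7 overlapped. Zbtb46, Irf4, Clec9a and Xcr1 differed little between the groups or were close to the detection limit.

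The 23 libraries came from brain microglia of female C57BL/6 mice, and the labels name 4 groups. These are young mice (Y, n = 7), young mice with repopulated microglia (Y-re, n = 3), old mice (O, n = 5) and old mice with repopulated microglia (O-re, n = 8). Depletion was by PLX5622, an inhibitor of the receptor CSF1R on which microglia depend for survival, mixed at 1200 ppm into AIN-76A chow. Per the labels, treatment controls ate the same chow without the drug. Repopulation is the refilling of the brain by new microglia once the drug is stopped. Ages, the length of treatment and the time allowed for regrowth are not stated in the labels. Their protocols cover magnetic selection by CD11b followed by culture, and also microglia sorted by flow cytometry, from which the RNA was extracted. CD11b is carried by other myeloid cells too, including some dendritic cells. Nothing in the labels says whether 2 libraries could come from 1 animal, so p-values measure the spread between libraries.

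Dendritic cells take up antigen and present it to T cells on MHC class II. In the healthy brain they sit mainly in the meninges, the choroid plexus and around vessels, and are rare in the tissue itself. Conventional dendritic cells grow under the cytokine Flt3 ligand and fall into a cDC1 type, which carries Xcr1 and Clec9a, and a cDC2 type, which depends on Irf4 and often carries Cd209a. Monocytes can also give rise to Cd209a-positive cells that resemble dendritic cells. Mature dendritic cells use Ccr7 to travel to lymph nodes.

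Library totals ran from 43.66 to 58.19 M expected counts (M for 1e06), and 16379 to 22147 genes had a count. The library numbers in the sample titles run from 1 to 24, and 3 young, 2 old and 5 old repopulated libraries carry numbers 1 to 11. In a fit with group and run of numbers, 10.3% of the tested genes differed between numbers 1 to 11 and numbers 12 to 24, called the lower and the higher run here, so values within each run are given beside the pooled ones. What the numbers stand for is not given in the labels. Young repopulated libraries lie only in the higher run. The summed level of 10 microglia genes had a median of 32890 CPM in young, 27270 in young repopulated, 21840 in old and 17050 in old repopulated libraries. Microglia transcripts were abundant in all groups, but the lowest old and old repopulated libraries held 11000 and 10400 CPM. In old repopulated against young mice 5 of the 10 were called lower (P2ry12, Fcrls, Olfml3, Sparc and Csf1r), where 15.2% of all genes were called. Fcrls alone was called lower in old against young mice, where 2.83% were called. CPM are counts per M after TMM scaling. Csf1r, the drug's target, averaged 6909 ± 385 CPM in young, 6158 ± 559 in young repopulated, 4532 ± 1233 in old and 4270 ± 1629 in old repopulated libraries (SD).

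The upstream sequences of the 3 members that differed without overlap between young and young repopulated mice are given because these genes were higher together. Each is the 250 bases before the RefSeq start site, from build GRCm38.p6, written 5′ to 3′ on the gene's strand. Capitals mark a match to 1 of 5 searched motifs. Cd209a lies at chr8:3748985-3749234, Flt3 at chr5:147400490-147400739 and Dpp4 at chr2:62412232-62412481, all on the minus strand.
Cd209a: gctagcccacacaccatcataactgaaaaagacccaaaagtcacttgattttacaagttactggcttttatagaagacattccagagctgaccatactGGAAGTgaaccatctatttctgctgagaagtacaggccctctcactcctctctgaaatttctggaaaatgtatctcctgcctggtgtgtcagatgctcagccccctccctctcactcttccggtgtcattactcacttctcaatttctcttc
Flt3: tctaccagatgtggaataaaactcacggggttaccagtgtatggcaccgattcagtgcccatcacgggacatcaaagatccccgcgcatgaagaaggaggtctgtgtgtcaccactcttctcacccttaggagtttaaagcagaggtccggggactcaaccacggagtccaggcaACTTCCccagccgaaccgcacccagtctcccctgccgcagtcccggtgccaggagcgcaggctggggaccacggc
Dpp4: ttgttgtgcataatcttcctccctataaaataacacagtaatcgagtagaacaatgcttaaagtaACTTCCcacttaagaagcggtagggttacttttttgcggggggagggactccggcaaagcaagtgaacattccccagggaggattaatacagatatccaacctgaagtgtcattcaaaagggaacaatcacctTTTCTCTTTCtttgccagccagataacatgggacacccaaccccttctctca
In Cd209a the capitals are an ETS core (GGAAGT) at bases -152 to -147. In Flt3 an ETS core lies on the opposite strand at -75 to -70. Dpp4 has an ETS core on the opposite strand at -185 to -180 and an interferon-stimulated response element (GAAANNGAAA) on the opposite strand at -52 to -43. Among 27025 mouse promoters of the same length, searched on both strands, the ETS core occurred in 20.0% and the interferon element in 3.04%. The other 3 motifs were the ETS-IRF composite GGAANNGAAA (2.38% of promoters), an NF-kB form GGGNNNNNCC (45.4%) and AP-1 TGANTCA (6.87%), and none of them was found in these 3 windows. The matches describe letters only and did not overlap each other. Of the other members, Xcr1 had an ETS core at -55 to -50, Zbtb46 an AP-1 match at -61 to -55, and Irf4 NF-kB matches at -182 to -173 and -105 to -96. The Zbtb46 window, chr2:181424389-181424638, lies inside the gene span given below, so it precedes an internal start site. The Clec9a window held none of the 5 motifs.

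Cd209a encodes a C-type lectin of the DC-SIGN family that binds sugars on microbes. The gene spans chr8:3743397-3748984 on the minus strand (GRCm38, GENCODE M21). In the 7 young libraries it ranged from 0.00 to 0.613 CPM with a median of 0.143, and only 54 counts were found in all of them together. It was at 0 in 2 of these libraries. The 3 young repopulated libraries held 5.53, 9.27 and 4.55 CPM. The 5 old libraries held 2.33, 2.56, 7.01, 3.72 and 6.04 CPM. The 8 old repopulated libraries ranged from 1.18 to 10.3 CPM with a median of 4.35. Every library of these 3 groups lay above every young library, while the 3 groups overlapped each other. Pooled over libraries, Cd209a was 25.4-fold higher in old, 38.5-fold higher in young repopulated and 30.0-fold higher in old repopulated than in young mice. On the log2 scale of the edgeR fit the differences were 4.66 ± 0.75 (SE), 5.23 ± 0.80 and 4.92 ± 0.73. Young replicate 4 held 27 of the 54 young counts, and without it they were 5.45, 6.03 and 5.72. Old repopulated and old mice differed by 0.27 ± 0.64, and old repopulated and young repopulated mice by -0.31 ± 0.75, which was 0.55 among library numbers 12 to 24, the only ones that hold young repopulated mice.

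**Figure D1:**
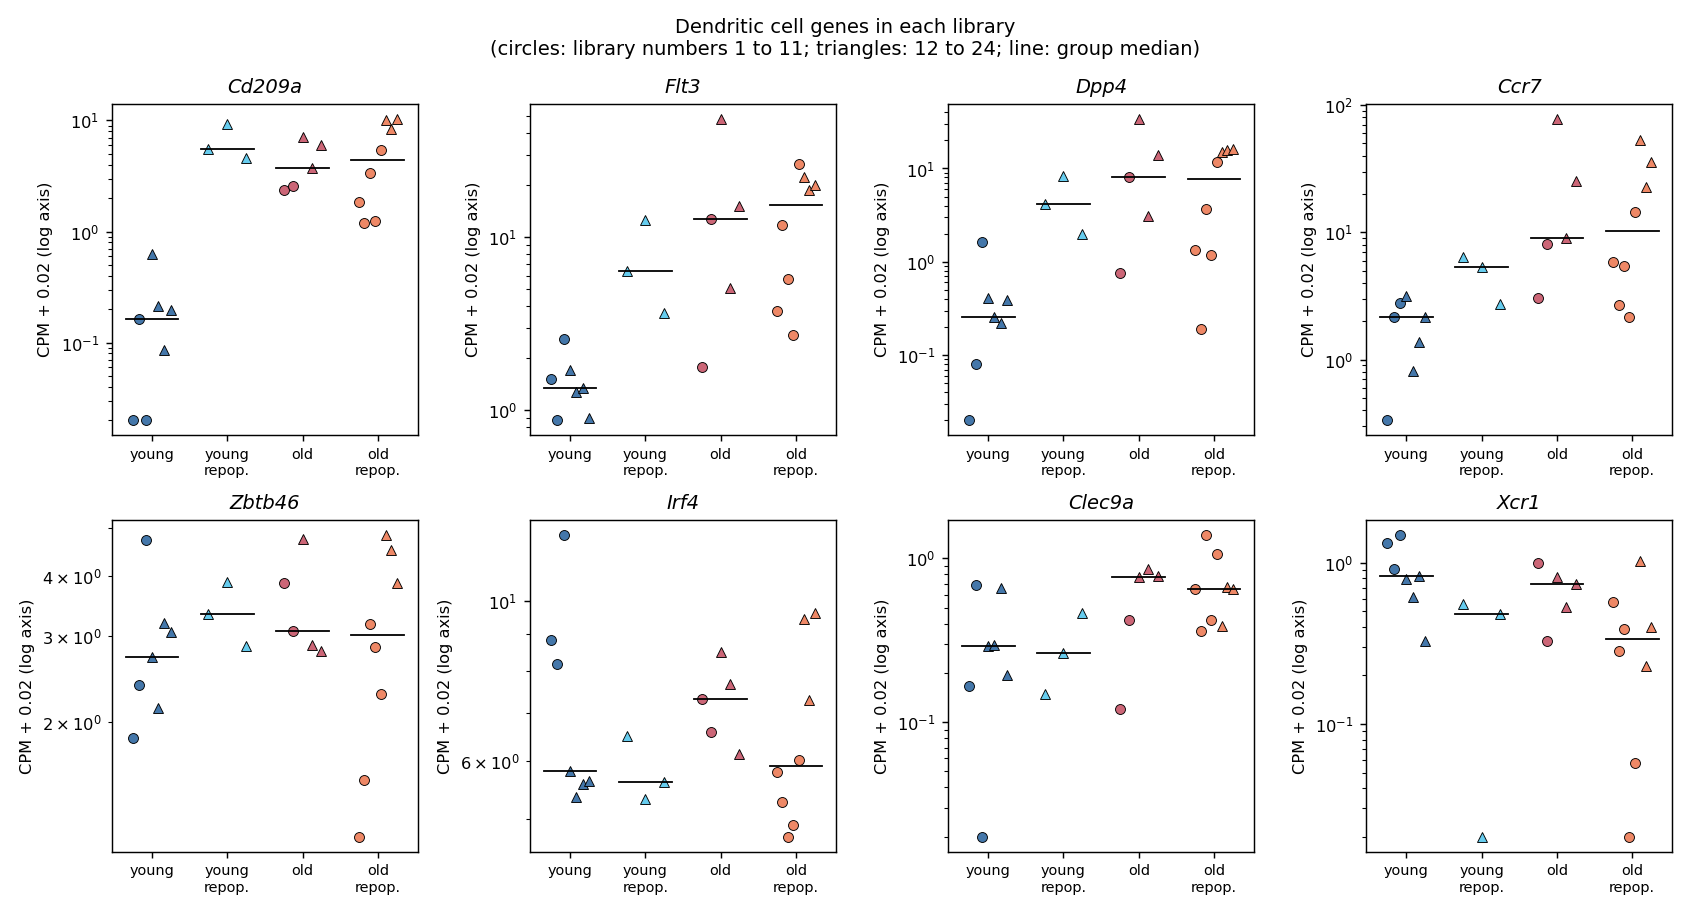
Level of each of the 8 genes in each library (CPM + 0.02 on a log axis), by group, with circles for library numbers 1 to 11, triangles for 12 to 24 and a line at the group median. All Cd209a points of the other groups lie above the highest young library (0.613 CPM), whereas the groups overlap for Zbtb46, Irf4, Clec9a and Xcr1.

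Within the treated and old groups, Cd209a also followed the library numbers. Old libraries numbered 1 to 11 averaged 2.45 ± 0.168 CPM (SD, n = 2) and those numbered 12 to 24 averaged 5.59 ± 1.69 (n = 3). For old repopulated mice the averages were 2.58 ± 1.78 (n = 5) and 9.59 ± 1.02 CPM (n = 3), and these did not overlap. The difference between the runs, with group in the model, was 1.77 ± 0.41 on the log2 scale (edgeR adjusted p = 0.0117). The log2 difference of old from young was 5.59 in the lower and 4.42 in the higher run. Old repopulated against young gave 5.67 and 5.20 in the same order. Young repopulated against young could be read in the higher run only, where it was 4.65.

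The log2 difference of Cd209a between repopulated and untreated mice was 5.23 in young and 0.27 in old mice, and these differed by -4.97 ± 1.0. No gene passed the edgeR test of this difference (0.0% of all genes called), and 3 of the 8 members were under 0.05 before adjustment. Cd209a was called for it by DESeq2, by limma voom and by edgeR with the run of library numbers as a covariate. Fitting the higher run alone with edgeR also called Cd209a, at -3.87. How many of all genes these settings called is not reported here, so nothing is read from these calls. The same difference was -4.13 ± 1.39 for Dpp4, -2.63 ± 0.90 for Flt3 and -1.90 ± 1.14 for Ccr7. Without the drug, Cd209a averaged 4.33 ± 2.10 CPM in old and 0.170 ± 0.211 in young mice (SD). These are other libraries than the repopulated ones, and the part of these levels in the difference was not tested.

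Flt3 encodes the receptor for Flt3 ligand, the growth factor receptor of dendritic cell progenitors and conventional dendritic cells. Its gene lies at chr5:147330741-147400489 on the minus strand. Young libraries ranged from 0.855 to 2.57 CPM with a median of 1.32. The young repopulated libraries held 6.32, 12.5 and 3.62 CPM, all above the young ones. Old libraries had 1.76, 12.7, 48.4, 5.10 and 15.1 CPM, and the lowest of them fell within the young range. The old repopulated libraries ranged from 2.70 to 26.3 CPM with a median of 15.3, and none overlapped the young ones. Against young mice the log2 differences were 3.53 ± 0.64 in old, 2.38 ± 0.69 in young repopulated and 3.28 ± 0.60 in old repopulated mice. Within the lower and the higher run, old differed from young by 2.13 and 4.15, and old repopulated from young by 2.61 and 4.0. Old repopulated and old mice differed by -0.25 ± 0.59, with 0.48 in the lower and -0.15 in the higher run.

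Dpp4, also known as CD26, is a surface peptidase found on T cells and on several dendritic cell types. Its gene lies at chr2:62330073-62412231 on the minus strand. Young libraries ranged from 0.00 to 1.60 CPM with a median of 0.235, and the 6 lowest were under 0.4. The young repopulated libraries held 4.12, 8.35 and 1.99 CPM, again all above the young ones. In old mice the libraries held 0.742, 8.15, 34.1, 3.10 and 14.0 CPM. Old repopulated libraries ranged from 0.169 to 16.3 CPM with a median of 7.70, and the lowest was inside the young range. The log2 differences from young were 4.88 ± 1.04 in old, 3.57 ± 1.08 in young repopulated and 4.32 ± 0.98 in old repopulated mice. Without young replicate 3, the highest young library, they were 5.84, 4.52 and 5.27, and without young repopulated replicate 2 the second was 2.93. Within the lower and the higher run, old differed from young by 2.99 and 5.83, and old repopulated from young by 2.69 and 5.71. Old repopulated and old mice differed by -0.57 ± 0.89.

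Ccr7 is the receptor for the chemokines Ccl19 and Ccl21 and steers mature dendritic cells and naive T cells to lymph nodes. Its gene lies at chr11:99144196-99155077 on the minus strand. Young libraries ranged from 0.313 to 3.16 CPM with a median of 2.13. The young repopulated libraries held 6.41, 5.33 and 2.69 CPM, the lowest within the young range. Levels in the old libraries were 3.01, 8.09, 78.1, 9.02 and 25.3 CPM. Old repopulated libraries ranged from 2.12 to 52.9 CPM with a median of 10.2. The log2 differences from young were 3.77 ± 0.81 in old, 1.41 ± 0.88 in young repopulated and 3.29 ± 0.76 in old repopulated mice. Ccr7 also differed between the runs of library numbers, by 1.81 ± 0.52 (edgeR adjusted p = 0.0306). Old against young was 1.66 in the lower run and 4.34 in the higher one, and old repopulated against young was 1.80 and 4.33. The 3 old libraries of the higher run averaged 37.5 ± 36.1 CPM (SD).

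Old replicate 3 was the highest old library for Flt3, Dpp4, Ccr7 and Cd209a. Without it, old against young missed the call for Dpp4 (log2 difference 4.0) and Ccr7 (2.65), and the Flt3 difference was 2.59. There 2 members were called in place of 4, and 100 of 18642 genes in all in place of 530 of 18720. In the full fit the 4 called members were Cd209a, Flt3, Ccr7 and Dpp4, all higher, where 2.83% of all tested genes were called in either direction and 2.6% higher. In young repopulated against young mice 1 member was called, Cd209a, where 1.34% of all genes were called and 0.828% were called higher. DESeq2 called 3 there and 834 genes in all, and edgeR called 2 members without young replicate 3 or old replicate 3. In old repopulated against young mice the 4 called members were again Cd209a, Flt3, Ccr7 and Dpp4, where 15.2% of all genes were called and 9.29% were called higher. Among library numbers 1 to 11 alone no member was called in either comparison with 4 calls, where 1 and 4 members were under 0.05 before adjustment. Among numbers 12 to 24 alone 6 members were called higher in old repopulated against young mice, with Irf4 and Zbtb46 added. That fit called 7068 genes in all. No member was called in old repopulated against old mice, where 0.278% of all genes were called and 0 members were under 0.05 before adjustment. DESeq2 and voom also called 0 members there. No member was called by any of these 3 tools in old repopulated against young repopulated mice, where edgeR called 0.0% of all genes and 0 members were under 0.05 before adjustment. Young repopulated libraries lie only in the higher run, and within that run edgeR called 2 members, Ccr7 and Irf4, and 6236 genes in all. Nothing is read from these counts, since the members were chosen with results known. Comparisons with young mice share the same 7 libraries, so their values stand side by side and are not separate evidence.

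Groups without overlap were counted in the same way. Against young libraries, Cd209a was the only member entirely higher in old mice, where 1.43% of all genes were. Cd209a, Flt3 and Dpp4 were entirely higher in young repopulated mice, where 5.97% of all genes were. Cd209a and Flt3 were entirely higher in old repopulated mice, where 0.983% of all genes were.

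**Figure D2:**
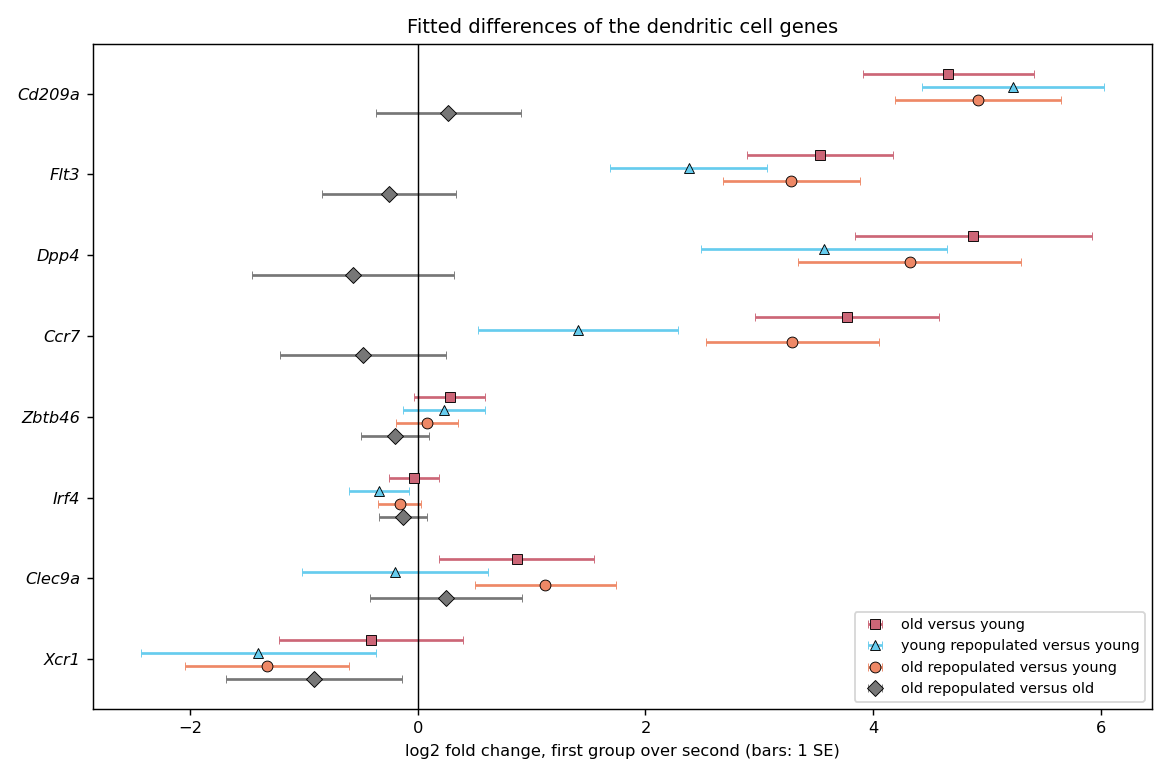
Fitted log2 fold change of each member in 4 comparisons, with bars of 1 SE. Cd209a lies between 4.66 and 5.23 in the 3 comparisons with young mice and at 0.27 in old repopulated against old mice, and all 4 values of Irf4 lie between -0.34 and -0.03.

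The transcription factors of the set gave another picture. Zbtb46, a factor that marks the conventional dendritic cell lineage and is also made by endothelial cells, lies at chr2:181387762-181459426 on the minus strand. It ranged from 1.84 to 4.71 CPM in young libraries (median 2.70) and from 1.14 to 4.82 in old repopulated ones (median 3.00). Among old libraries the values were 3.85, 3.06, 4.73, 2.86 and 2.77 CPM, and among young repopulated ones 3.31, 3.87 and 2.85. All groups overlapped, and the log2 differences from young were 0.28 ± 0.31 in old, 0.23 ± 0.36 in young repopulated and 0.08 ± 0.27 in old repopulated mice. The last of these turned its sign between the runs, at -0.44 in the lower and 0.68 in the higher. Summed endothelial genes, 6 in the list, had group medians between 25.35 and 38.99 CPM, but single genes went in both directions. Flt1 was called higher in old, young repopulated and old repopulated against young mice, and Pecam1 lower in the last 2. In these comparisons 2.83%, 1.34% and 15.2% of all genes were called.

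Irf4, the factor that cDC2 cells and plasma cells need, lies at chr13:30749226-30766976 on the plus strand. It ranged from 5.34 to 12.3 CPM in young (median 5.79) and from 4.70 to 9.60 in old repopulated libraries (median 5.89). For old mice the values were 7.30, 6.56, 8.49, 7.65 and 6.13 CPM, and for young repopulated mice 6.49, 5.31 and 5.61. The highest value of all belonged to young replicate 3, where the number of genes with a count was also the lowest (16379). The log2 difference of old from young was -0.03 ± 0.22, and its sign turned between the runs, at -0.50 in the lower and 0.42 in the higher numbers. For old repopulated against young the pooled value was -0.16 ± 0.19, while the lower run gave -0.87 and the higher run 0.66.

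The cDC1 receptors were near the limit of detection. Clec9a, a lectin that senses dead cells, lies at chr6:129408862-129424763 on the plus strand. The young libraries ranged from 0.00 to 0.672 CPM, a median of 0.273, and the old repopulated ones from 0.338 to 1.37 CPM, a median of 0.632. Levels were 0.10, 0.402, 0.751, 0.842 and 0.761 CPM in old and 0.128, 0.244 and 0.442 CPM in young repopulated libraries. The groups overlapped. Its log2 difference from young was 0.87 ± 0.68 in old, -0.20 ± 0.82 in young repopulated and 1.12 ± 0.62 in old repopulated mice. The first was -0.12 in the lower and 1.21 in the higher run, and the last was 1.47 and 0.69. Of the 50-base windows in its transcripts, 4.02% also occur in another gene, Clec1b.

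Xcr1, the receptor for the chemokine Xcl1 made by natural killer and CD8 T cells, lies at chr9:123852315-123862029 on the minus strand. It ranged from 0.307 to 1.47 CPM in young (median 0.814) and from 0.00 to 1.01 CPM in old repopulated libraries (median 0.317). The old libraries held 0.982, 0.306, 0.796, 0.510 and 0.716 CPM, and the young repopulated ones 0.534, 0.00 and 0.464. Its log2 differences from young were all below 0, at -0.41 ± 0.81 in old, -1.40 ± 1.03 in young repopulated and -1.32 ± 0.72 in old repopulated mice. In the lower and the higher run, old against young was -0.93 and 0.12, and old repopulated against young was -2.31 and -0.22. Neither cDC1 receptor was called in any of the 5 comparisons.

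Per length, as TPM (transcripts per M, in which counts are divided by gene length), the order of the members changed with the group. In young mice Irf4 came first at 2.74 ± 0.685 TPM (SD), followed by Ccr7 at 1.57 ± 0.889 and Zbtb46 at 1.35 ± 0.541, and Cd209a stood near the end at 0.263 ± 0.256. The intervals of mean ± SD overlapped for each neighbouring pair. In young repopulated mice Cd209a came first at 7.76 ± 2.41 TPM, ahead of Ccr7 at 4.04 ± 1.57 and Flt3 at 3.35 ± 2.05, and the intervals of the first 2 overlapped. In old mice Ccr7 led at 21.7 ± 27.0 TPM, with Flt3 at 7.79 ± 8.63, Dpp4 at 5.75 ± 6.64 and Cd209a at 5.68 ± 2.59. These 4 are not separated, because the SD of Ccr7 alone covers the others. In old repopulated mice the first 3 were Ccr7 at 14.9 ± 15.2, Cd209a at 6.56 ± 4.72 and Flt3 at 6.24 ± 4.09 TPM. Clec9a and Xcr1 were last in both old groups.

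Cd209a has 6 relatives in the mouse, Cd209b to Cd209g, in the same stretch of chromosome 8. None of the 50-base windows of Cd209a transcripts occurs in another gene, so reads of Cd209a are not shared with its relatives at exact matches. Cd209f and Cd209g share windows, 29.8% and 16.6% of their own, and 15.7% of the Cd209c windows occur in other genes, so the counts of these 3 are uncertain. Cd209c had its higher levels in the same groups as Cd209a, but was far less abundant. Pooled levels of Cd209c were 0.0402 CPM in young, 0.139 in young repopulated, 0.253 in old and 0.234 in old repopulated mice, and no comparison of it was called.

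Cd209b, Cd209f and Cd209g were instead low after repopulation. Cd209b held 2.05, 0.593, 0.332, 0.399 and 0.537 CPM in the old libraries and at most 0.0939 in the old repopulated ones. Pooled, it was 29.2-fold lower in old repopulated than in old mice, without overlap but not called by edgeR over all libraries (adjusted p = 0.0818), while DESeq2, voom and edgeR among library numbers 12 to 24 alone called it. Old replicate 1 held 102 of the 190 old counts, and without it the log2 difference was -3.97 in place of -4.72. Cd209f held 3.03, 2.39, 1.06, 1.77 and 0.962 CPM in old libraries and at most 0.490 in old repopulated ones. It was 13.3-fold lower in old repopulated than in old mice and 13.7-fold lower in young repopulated than in young mice, neither called (edgeR adjusted p = 0.108 and 0.245). Cd209g had 64 counts in old, 51 in young and 0 in all 8 old repopulated and all 3 young repopulated libraries. Against a floor of 3 counts over the group, it was at least 36.1-fold lower in old repopulated than in old mice (edgeR adjusted p = 0.0407). Against young mice it was at least 21.1-fold lower (edgeR adjusted p = 0.00554), and the first of these calls was lost in 18 of the 23 fits that left out 1 library and, without the filter on low counts, had an adjusted p of 0.0551. At least 7.21-fold lower in young repopulated than in young mice was not called (edgeR adjusted p = 0.147). Cd209d had 6, 0, 26 and 19 counts and Cd209e 40, 8, 5 and 0 counts in young, young repopulated, old and old repopulated mice, and neither was kept for testing. Young replicate 3 held 39 of the 40 young counts of Cd209e, and old repopulated replicate 8 held 15 of the 19 counts of Cd209d in its group.

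**Figure D3:**
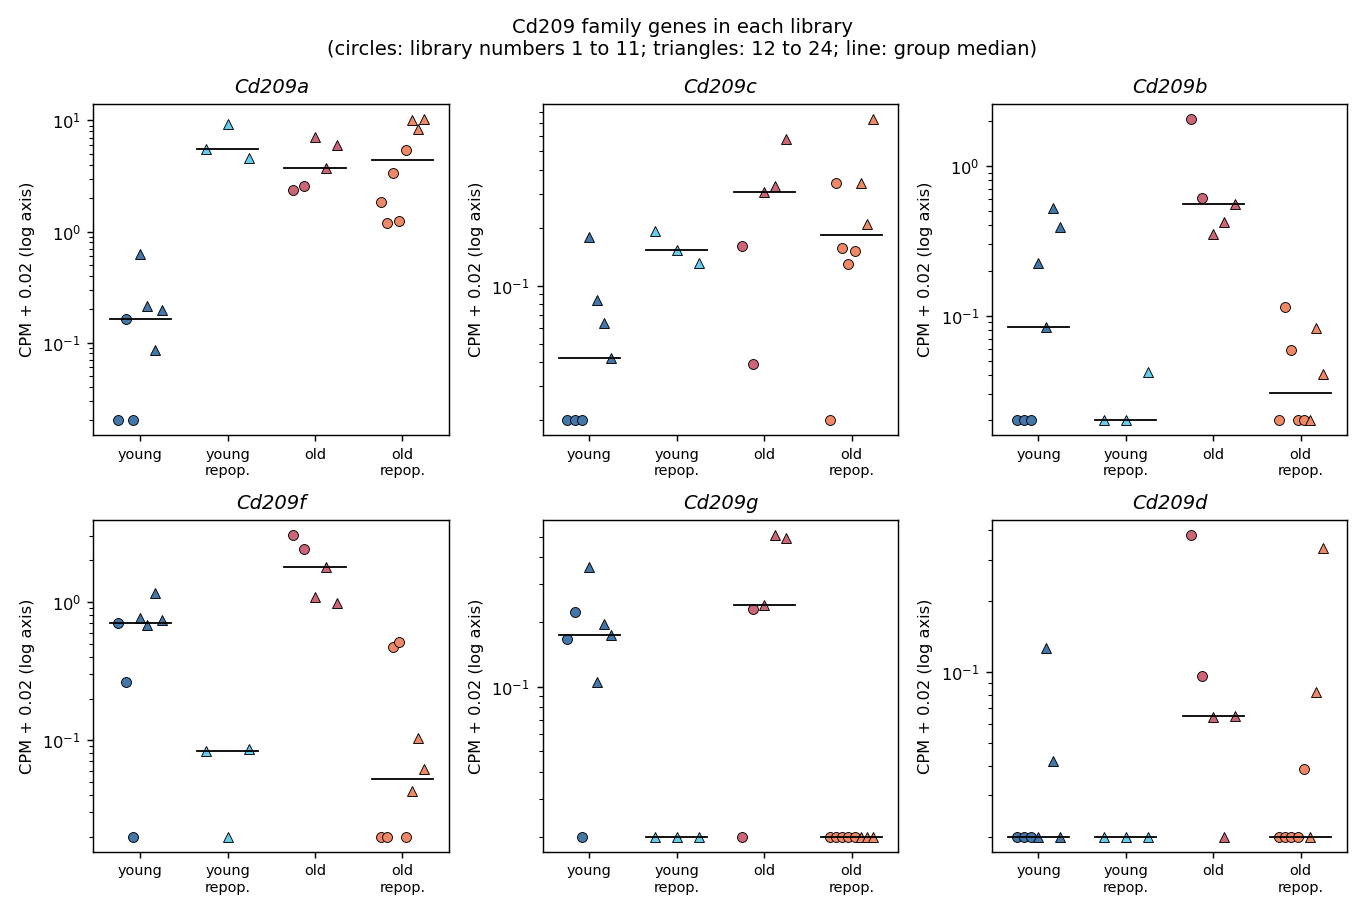
Level of Cd209a and 5 of its relatives in each library (CPM + 0.02 on a log axis), with markers as in the plot of the 8 genes. Points at the bottom of each panel are libraries with 0 counts, which hold all 11 repopulated libraries for Cd209g.

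Beyond the set, 47 other genes were listed, by dendritic cell subtype or as ligands and growth factor receptors, and 42 of them were tested. These lists were also made with earlier results of these data known, so their counts are given as a description. In old against young mice 5 of the 42 rose and none fell, where 2.6% of all genes rose. They were Clec10a and Tnip3 of the cDC2 list, Itgax and Jaml of the common list, and Ccl22 of the mature list. Clec10a, a lectin also made by macrophages, rose by 2.33 ± 0.60 (edgeR adjusted p = 0.0363). Ccl22, a chemokine of mature dendritic cells that attracts regulatory T cells, rose by 3.16 ± 0.77 (edgeR adjusted p = 0.0269). Itgax, the integrin CD11c that activated microglia make as well, rose by 1.36 ± 0.29 (edgeR adjusted p = 0.0135), from 73.6 ± 14.0 to 189 ± 82.0 CPM (SD). The median log2 difference was 0.43 over the 42 genes and -0.01 over all genes. Without old replicate 3 none of the 42 was called, and 14 were under 0.05 before adjustment. That fit called 100 of 18642 genes in all, so calls were lost among all genes too. Without old replicate 5 only 1 of the 42 was called. Over all genes, the fits that left out 1 library called 100 to 941. The count was 2 or 3 without any 1 of young replicates 1, 2, 4, 5, 6 and 7. It was 8 to 11 without young replicate 3, old replicate 1 or 4, or old repopulated replicate 1, 2, 4 or 6.

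In young repopulated against young mice 2 of the 42 genes rose and 1 fell, where 1.34% of all genes were called. Mgl2, a lectin of cDC2 cells and some macrophages, rose by 3.36 ± 0.52 (edgeR adjusted p = 0.00215). The young repopulated libraries averaged 9.03 ± 2.77 CPM of Mgl2 and the young ones 0.878 ± 0.434 (SD), without overlap, and the call held in each fit that left out 1 library. Itgax rose by 1.65 ± 0.33 (edgeR adjusted p = 0.0134), and the call was lost without young repopulated replicate 1 or 3. The 3 calls became 1 without either of those libraries and 5 without young replicate 3. Tcf4, a factor of plasmacytoid dendritic cells that many other cells make, fell by 0.32 ± 0.08 (edgeR adjusted p = 0.0491), a call that was lost in 20 of the 23 fits with 1 library left out. The median of the 42 genes was 0.17, or 0.14 with genes at 0 in a whole group set to their bound, against -0.04 over all genes.

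In old repopulated against old mice, where 0.278% of all genes were called, only Tcf4 of the 42 passed the test, falling by 0.30 ± 0.06 (edgeR adjusted p = 0.0437), a call that was lost in 18 of the 23 fits with 1 library left out. The median of the 42 genes was -0.07 there, against 0.00 over all genes. None of the 42 was called in old repopulated against young repopulated mice, where 2 were under 0.05 before adjustment. There voom called 6 of them and 3189 genes in all. Within the higher run, which holds all young repopulated libraries, edgeR called 16 of 41 higher and 6 lower, and 6236 genes in all.

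In old repopulated against young mice 13 of the 42 rose and 4 fell, where 15.2% of all genes were called and 9.29% rose. Of these 17 calls 13 held in each fit that left out 1 library and still tested the gene. By subtype, 4 of 7 cDC2 genes rose, namely Clec10a, Mgl2, Tnip3 and Cd207. Mgl2 rose by 3.02 ± 0.45 and Tnip3, an inhibitor of NF-kB signalling, by 3.74 ± 0.57 (edgeR adjusted p = 0.000352 and 0.000377), both without overlap. Cd207, the langerin gene, had 0 counts in young and 77 in old repopulated libraries, of which 4 were at 0. Of the 77 counts 41 lay in 1 library, and Cd207 was kept for testing in only 20 of the fits with 1 library left out. Of 7 common genes 3 rose, Itgax, Kmo and Jaml. Of 10 mature genes Ccl22, Ccl17, Cd40 and Cd80 rose and Fscn1, an actin-bundling protein, fell by 1.26 ± 0.26 (edgeR adjusted p = 0.00324). Fscn1 averaged 241 ± 24.8 CPM in young microglia, far above any member of the set. Of 8 cDC1 genes none rose, and Tlr3 fell by 0.75 ± 0.25 (edgeR adjusted p = 0.0439). Of 7 plasmacytoid genes Spib rose while Tcf4 and Pacsin1 fell. The median of the 42 was 0.33, against -0.02 over all genes. The calls for Ccl17, Cd40, Spib and Tlr3 were lost in 6, 9, 5 and 15 of the 23 fits with 1 library left out.

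**Figure D4:**
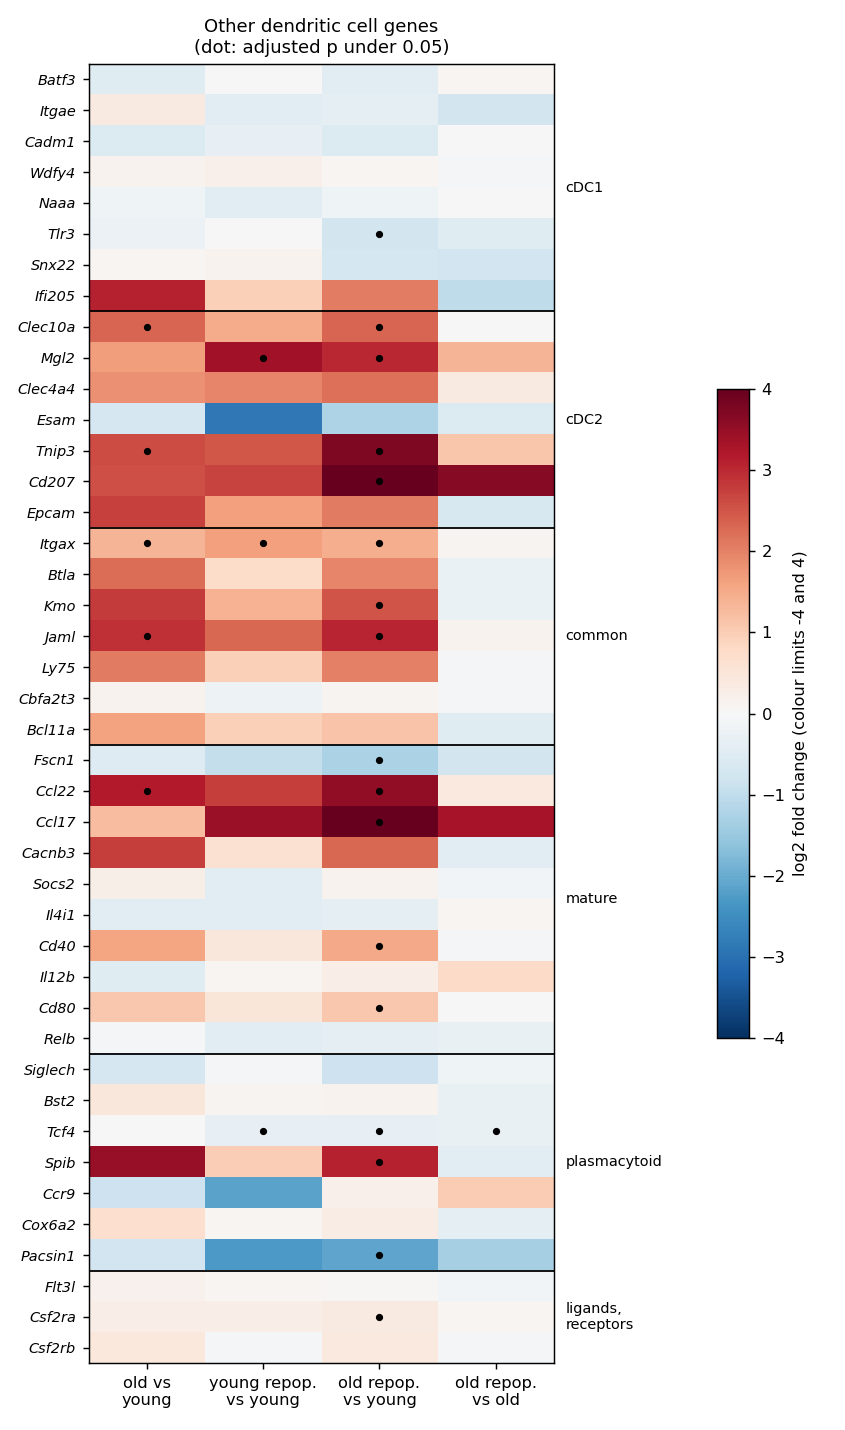
Log2 fold change of the 42 tested dendritic cell genes outside the set (rows, by list) in 4 comparisons (columns), coloured from -4 to 4, with a dot where the adjusted p was under 0.05. Dots are most frequent in old repopulated against young mice (17 of 42), and the cDC1 rows carry 1 dot.

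The ligands of the members' receptors differed little where they were detected. Flt3l, which encodes the Flt3 ligand, averaged 5.01 ± 0.938 CPM in young, 5.26 ± 1.64 in young repopulated, 5.62 ± 0.865 in old and 5.18 ± 1.05 in old repopulated mice (SD). It was not called in any comparison, and its log2 difference of old from young was 0.17 ± 0.19. Ccl19, Ccl21a and Xcl1 had too few counts to be tested. Csf2ra, a subunit of the GM-CSF receptor, rose by 0.35 ± 0.09 in old repopulated against young mice (edgeR adjusted p = 0.0111).

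Lists of other immune cells, also made with earlier results of these data known, were counted in the 3 comparisons with young mice. In these, 2.83%, 1.34% and 15.2% of all genes were called. Of 7 MHC class II genes 5 rose in old against young mice, 1 in young repopulated against young and 6 in old repopulated against young. Of 10 monocyte genes 6, 0 and 9 rose in the same order, and of 8 neutrophil genes 4, 1 and 4. Of 8 genes of border-associated macrophages 1, 1 and 4 rose. Ms4a7 rose in all 3, from 17.1 ± 8.78 CPM in young to 114 ± 88.3 in old, 94.3 ± 41.1 in young repopulated and 114 ± 62.0 in old repopulated mice (SD), and Mrc1, Pf4 and Cbr2 rose in old repopulated mice. Among B cell genes, Cd79b went the other way. It fell by 2.43 ± 0.60 in young repopulated and by 1.63 ± 0.40 in old repopulated against young mice (edgeR adjusted p = 0.0454 and 0.00892). Ighm, the heavy chain of IgM, fell by 1.16 ± 0.34 in old repopulated against young mice (edgeR adjusted p = 0.0245). Ccr2, the chemokine receptor of blood monocytes, rose by 3.93 ± 0.86 in old against young mice (edgeR adjusted p = 0.0149). The summed monocyte genes ran from 51.92 to 384.3 CPM in young (median 63.14), 196.8 to 466.8 in young repopulated (343.5), 199.8 to 3216 in old (1081) and 150.8 to 4102 in old repopulated libraries (919.9). The summed MHC class II genes ran from 220.6 to 752.5 CPM in young (median 308.4), 740.7 to 1814 in young repopulated (1277), 486.7 to 5621 in old (2230) and 607.8 to 3642 in old repopulated libraries (2072). Their part in the differences of the members was not tested. In bulk samples, more cells of a type and more RNA per cell cannot be told apart.

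T and NK cell genes other than Il7r were low. The 8 genes of that list together had medians of 17.13, 38.61, 40.58 and 42.82 CPM in young, young repopulated, old and old repopulated libraries, with ranges of 12.87 to 34.35, 31.31 to 43.64, 17.84 to 110.3 and 21.51 to 120.0. Nearly all of this sum was Il7r, with means of 18.5, 37.1, 52.4 and 59.6 CPM, and Il7r rose by 1.69 ± 0.40 in old repopulated against young mice (edgeR adjusted p = 0.00755). Cd3g, Trbc2 and Nkg7 were at 0 in all young libraries, and Skap1 in all young repopulated ones. The 8 neutrophil genes had medians of 29.56, 67.08, 153.8 and 99.2 CPM, and ranges of 10.28 to 82.11, 64.66 to 150.0, 82.52 to 209.7 and 66.75 to 298.6. The 8 genes of border-associated macrophages had medians of 1424, 1504, 1380 and 1799 CPM and ranges of 1015 to 1653, 1298 to 1511, 1149 to 1624 and 615.5 to 2315, and most of that sum was Stab1 (1269 ± 215 CPM in young mice). The 9 neural and glial genes had medians of 145.7, 127.8, 132.8 and 106.5 CPM, with Mog at 0 in all young repopulated and all old libraries. The part of these cells in the members' levels was not tested.

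**Figure D5:**
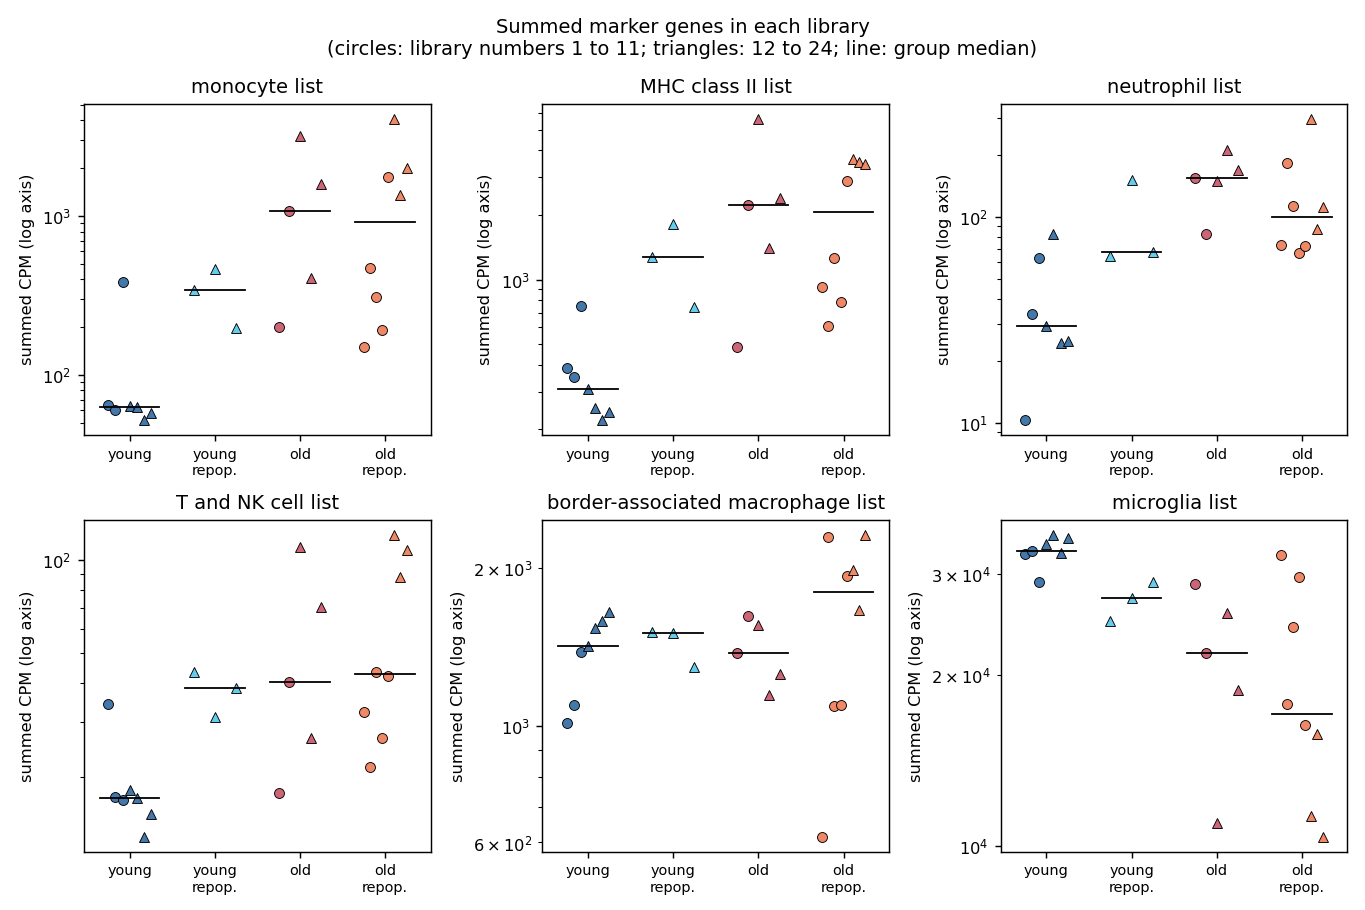
Summed CPM of 6 marker lists in each library (log axis), with markers as in the plot of the 8 genes. Old replicate 3 is the highest old library for the monocyte list (3216 CPM) and the MHC class II list (5621 CPM) and the lowest for the microglia list (11000 CPM).

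The genes most alike to each member differed as well. Likeness was Pearson's r of log2 CPM over the 23 libraries, among 11269 named genes, given as a description because libraries share group, run and depth. For Cd209a the 6 most alike were Rab3gap2, Pde7b, Cd48, Atp8b4, Mcemp1 and Runx2. The young libraries form a cluster of their own for Cd209a, so r is given over the 16 other libraries, where it was 0.61, 0.57, 0.69, 0.72, 0.73 and 0.70. The 6 were ranked over all 23 libraries, so they need not be the most alike over these 16. Cd48 is a leukocyte adhesion molecule and Runx2 a transcription factor, and none of the 6 stands on the lists of dendritic cell genes. Over the same 16 libraries Flt3 followed Dram1, Ifi203 and AA467197 at 0.94, 0.93 and 0.95. Dpp4 followed Klrk1, P2ry10 and Thbs1 at 0.94, 0.95 and 0.93, where Klrk1 encodes the receptor NKG2D of natural killer and T cells. Ccr7 followed Ramp3, B3gnt5 and Cacnb3 at 0.95, 0.93 and 0.97, and Cacnb3 stands on the list of mature dendritic cell genes. Over the same 16 libraries Zbtb46 had an r of 0.81 with Akap2, Irf4 0.73 with Arf6 and 0.86 with Rybp, Clec9a 0.55 with Mirt1, and Xcr1 0.75 with Ewsr1.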

How the data were processed

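Poly(A) RNA of 23 microglia libraries was prepared with a stranded kit from 2.4 to 147 ng of RNA and read as single reads of 50 nt, per the labels' protocols. The submitters' processing notes name FastQC 0.11.5, STAR, RSEM, limma and build GRCm38. Tool roles, the annotation release and the strand setting are not given in the sources used here. For each library the authors deposited expected counts (estimates that need not be whole, 87.26% whole within 1e-06) and TPM for 53090 genes. Expected counts were rounded for testing, and TPM was used only to order genes per length. RSEM divides reads among similar genes, so near-identical and overlapping genes are uncertain.

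edgeR 4.0.16 in R 4.3.3 fitted 1 model of 4 groups (TMM, filterByExpr, glmQLFit and glmQLFTest), and a gene was called when its p, adjusted by Benjamini-Hochberg over 18720 genes, was under 0.05. The SE is the log2 fold change divided by the root of F. The fit was tested on simulated data. Alternatives were RLE factors, no filter, DESeq2 1.42.0, voom with quality weights (limma 3.58.1), only the groups compared, library numbers 1 to 11 against 12 to 24 as a covariate or alone, and leaving out each library. The members and all gene lists were chosen with earlier results of these data known. Named genes are the members, the other Cd209 genes, Csf1r, genes of a list where it is discussed (called ones first, then abundant ones), and the 6 genes most correlated with Cd209a or 3 with each other member. Those had a mean of at least 1 CPM and log2 CPM with a prior count of 2, and predicted genes, Riken clones and pseudogenes were left out.

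Promoters are from RefSeq (GRCm38.p6), where 7 of the 8 members matched, and gene positions are from GENCODE M21 with the same identifier version. Shared windows are exact matches of 50 bases among its transcripts. Precision per gene is limited by counts, and a group at 0 allows up to 3 counts, which covers counting error only. The B cell list is given only by Cd79b and Ighm, named after their values were seen because they were called, and its sum is not reported here.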

Additional observations from a re-analysis of the deposited data

Results flagged for a closer look

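Of 24 groups of 4 to 10 libraries (8 genes in 3 groups), 3 had a library standing apart from the others by Dixon's ratio of gap to range. For normally distributed values chance gives about 1 in 20. The ratios were taken on CPM and not on a log scale, so that rate may not hold here. Young replicate 4 held 0.613 CPM of Cd209a and the next young library 0.192, a ratio of 0.687. Old replicate 3 held 48.4 CPM of Flt3 and the next old library 15.1, a ratio of 0.715. Young replicate 3 held 1.60 CPM of Dpp4 and the next young library 0.386, a ratio of 0.759. That library also had the most TPM of Dpp4 among young libraries, 3.85 from 71 counts, while young repopulated replicate 2 had 2.60 TPM from 376 counts. TPM depends on an effective length that differs between libraries, and the reason for this gap was not tested.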

How the results depend on the processing

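No paired analysis was possible because nothing in the labels ties the replicate numbers of different groups to each other. The cause of the shifts below was not tested. Numbers are genes called, in 5 comparisons taken in this order: O with Y, O-re with O, Y-re with Y, O-re with Y, and O-re with Y-re. All genes gave 530, 52, 251, 2847 and 0 by edgeR. The other dendritic cell genes gave 5, 1, 3, 17 and 0, the members 4, 0, 1, 4 and 0, and the interaction 0 members.

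Among all genes, voom called 2363, 413, 2574, 6646 and 3189, and library numbers 12 to 24 alone gave 2691, 2187, 1598, 7068 and 6236. DESeq2 called 970, 312 and 834 in the first 3 comparisons and 92 in the last. Library numbers 1 to 11 alone gave 1, 0 and 2 in the first, the second and the fourth comparison. Without the filter 34 and 165 were called in the second and the third, and with only the groups compared 0 and 1255. The covariate gave 114, 4585 and 846 in the second, the fourth and the last. In young repopulated against young, 155 genes were higher and 96 lower by edgeR, and 358 and 476 by DESeq2.

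Of the other dendritic cell genes, voom called 16, 4, 12, 28 and 6, and numbers 12 to 24 alone gave 19, 9, 13, 30 and 22. DESeq2 called 12 in the first and 6 in the third comparison, and only the groups compared gave 8, 0 and 7 in the first 3. No filter gave 0 in the second. Numbers 1 to 11 alone gave 0 in the first, the second and the fourth.

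Of the members, numbers 1 to 11 alone gave 0 in the first and the fourth comparison. In young repopulated against young, DESeq2, only the groups compared, and numbers 12 to 24 each gave 3. Numbers 12 to 24 gave 2 in the last comparison. The interaction gave 1 member with DESeq2, voom and the covariate, and 2 with numbers 12 to 24. Its calls over all genes in these settings are not reported here. Leaving out 1 library at a time gave, in the same order, 100 to 941, 5 to 185, 33 to 407, 1955 to 4772 and 0 to 1 for all genes. It gave 0 to 11, 0 to 1, 1 to 5, 13 to 24 and 0 to 0 for the other dendritic cell genes, and 2 to 4, 0 to 0, 1 to 2, 4 to 4 and 0 to 0 for the members, with 0 to 0 for the interaction. No called value turned its sign. Clec9a and Xcr1, with means under 1 CPM in every group, are limited by depth. So are Cd209a and Dpp4 in young mice, with means of 0.170 and 0.408 CPM, against which their differences were taken.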
